A study of Drosophila melanogaster with 12 samples.

Results

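The 8 Hox genes of Drosophila melanogaster, labial (lab), proboscipedia (pb), Deformed (Dfd), Sex combs reduced (Scr), Antennapedia (Antp), Ultrabithorax (Ubx), abdominal-A (abd-A) and Abdominal-B (Abd-B), were examined for RNA Polymerase II (Pol II) peaks in Kc167 cells. They were taken by gene name from the Ensembl release 115 annotation (BDGP6.54, the same assembly as dm6), which held 18277 genes, of which 13968 are protein-coding. 5 of them (lab, pb, Dfd, Scr and Antp) form the Antennapedia complex and 3 (Ubx, abd-A and Abd-B) the bithorax complex, both on chromosome arm 3R.

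Hox genes encode homeodomain transcription factors that give each segment of the body its identity, and within each complex their order along the chromosome follows the order of the segments they act in. In the fly embryo each Hox gene is held silent outside its own domain by Polycomb group proteins and kept active inside it by trithorax group proteins. Both complexes are standard examples of long, Polycomb-repressed chromatin domains, and insulators and cis-regulatory regions take up most of the bithorax complex.

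Kc167 is an established Drosophila cell line of embryonic origin with features of hemocytes, the fly's blood cells. Chromatin was immunoprecipitated with the 8WG16 antibody, which the study used for the hypophosphorylated form of Pol II, from 3 groups of 2 libraries each. Mock cells were transfected without RNA, siAGO2 cells with 100 pmol of siRNA against AGO2, the Argonaute that carries siRNAs in flies, and dsLaminB cells with 2 µg of dsRNA against LaminB, a protein of the nuclear lamina, and all were collected 3 days after transfection. Since the mock cells received no RNA, the effect of depletion and that of transfected RNA cannot be told apart. The study reports a check of knockdown efficiency by Western blotting, but the peak lists carry no check of either knockdown. The labels do not say whether the 2 libraries of a group came from separate cultures, so the p-values below measure only the spread between these libraries, which may be technical.

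Each library gave 1 list of broad peaks, called against its own input. The mock lists held 5965 and 5601 peaks, the siAGO2 lists 4089 and 5381, and the dsLaminB lists 2531 and 4124, and sequencing depth is unknown. The list length differed within siAGO2 and within dsLaminB by over 1000 peaks, so a missing Hox peak has to be read against the length of its list. A gene was counted as having a TSS peak when a peak lay within 500 bp of any of its annotated transcription start sites (TSSs), and as having a body peak when a peak overlapped the gene by at least 1 bp. Among protein-coding genes, a TSS peak was present at 49.7% and 47.5% for mock, 35.4% and 44.8% for siAGO2, and 20.2% and 33.6% for dsLaminB. As a check of the cell type, 8 of 12 hemocyte marker genes had a TSS peak in all 6 libraries, among them ush, a cofactor of GATA factors, Pvr, a receptor tyrosine kinase, and the matrix genes Ppn and Pxn, whereas crq had one in 4 libraries and eater in 3, while He and NimC1 had none. Of 5 neuronal markers 1 (elav) had a TSS peak, in all 6 libraries, of 5 muscle markers none did, and of 4 germ line markers 1 did (aub, in the 2 mock libraries). Among all protein-coding genes, 19.7% had a TSS peak in all 6 libraries and 50.8% in at least 1. The neuronal share in all 6 libraries (20.0%) was thus near that of all protein-coding genes. The marker lists are short, and their shares were not tested.

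Pol II peaks were called on 3 of the 8 Hox genes, and at the TSS of 2. Dfd, which specifies the mandibular and maxillary segments of the head, had a TSS peak in both mock libraries and in siAGO2 replicate 2. Abd-B, which specifies the posterior abdomen and is the most posterior of the 8, had one in every library except siAGO2 replicate 1. On pb, which specifies the adult mouthparts, the only peak was intronic and was called in dsLaminB replicate 1 alone. The other 5 genes, lab (anterior head), Scr (labium and prothorax), Antp (mesothorax), Ubx (metathorax and the first abdominal segment) and abd-A (anterior abdomen), had no peak anywhere in the gene in any library. The number of Hox genes with a TSS peak was thus 2 in each mock library, 0 and 2 in siAGO2, and 1 in each dsLaminB library.

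**Figure D1:**
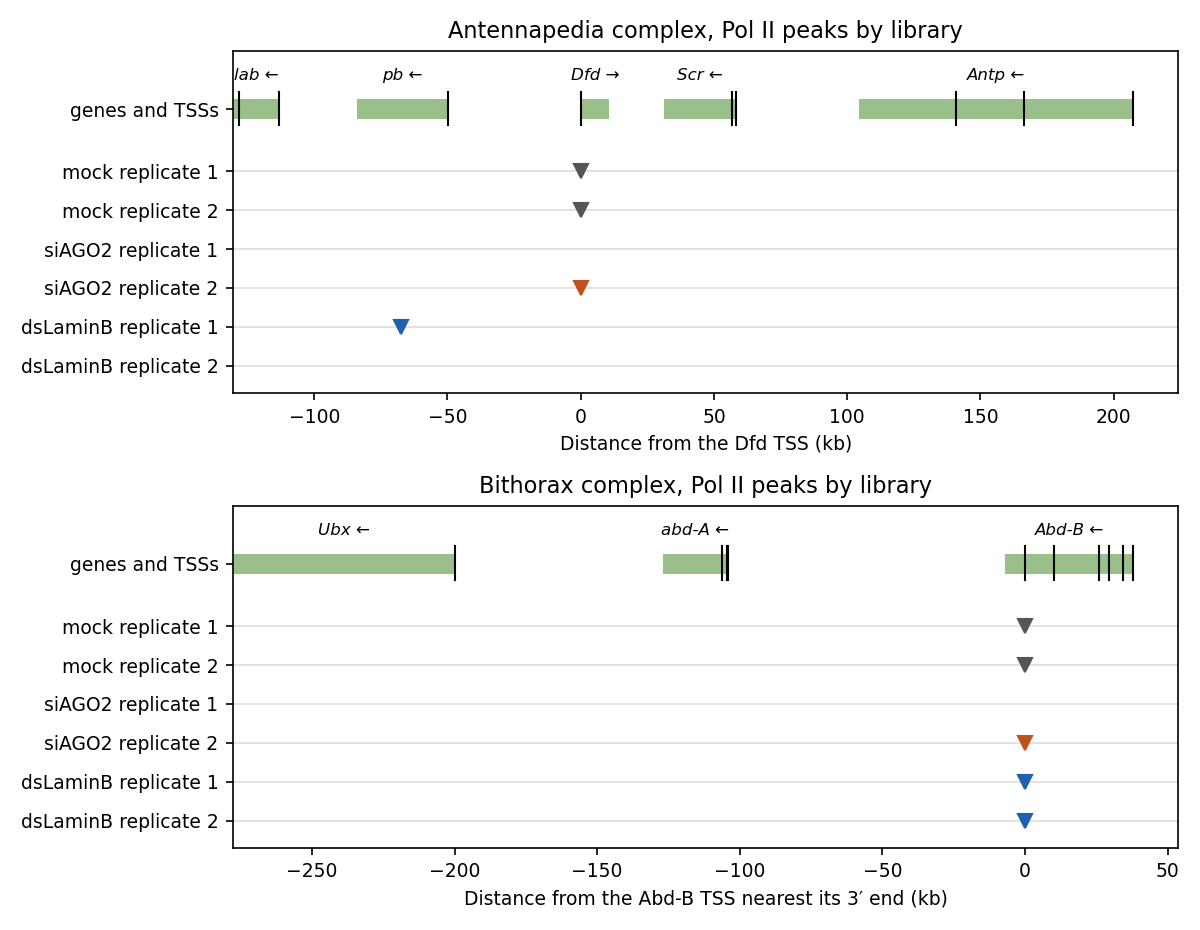
Pol II peaks across the Antennapedia complex (top) and the bithorax complex (bottom); the x axis gives the distance in kb from the occupied TSS of Dfd or Abd-B, green bars are genes with vertical lines at their TSSs and arrows for their direction, and each triangle is a peak in the library named at the left (grey mock, orange siAGO2, blue dsLaminB). The triangles fall at 3 places, the Dfd TSS (3 libraries), the Abd-B TSS nearest the gene's 3′ end (5 libraries) and an intron of pb (1 library).

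The map of peaks along the complexes shows how few there were. The Antennapedia complex (338.0 kb from lab to Antp) held 1 peak in each mock library, in siAGO2 replicate 2 and in dsLaminB replicate 1, and 0 in the other 2 libraries. The bithorax complex (316.0 kb from Ubx to Abd-B) held 1 in each library except siAGO2 replicate 1, which had 0. Over both complexes and all 6 libraries there were 9 peaks at 3 sites. This corresponds to a median of 0.306 peaks per 100 kb in a library (0 to 0.306), against a median of 3.49 (1.84 to 4.35) over the whole of 3R. Every peak in the complexes lay on a Hox gene. The 44 other annotated genes of the Antennapedia complex (15 protein-coding) and the 18 other genes of the bithorax complex (3 protein-coding) had no TSS peak in any library.

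Outside the complexes the peaks resumed at distances that differed between the 4 ends. The nearest peak beyond the lab end was 1289 to 3146 bp away over the 6 libraries, and the nearest beyond the Ubx end 4193 to 4339 bp away, at CG14907. Beyond the Abd-B end it was 9763 to 30517 bp away and beyond the Antp end 67656 to 67747 bp away. The lab and Ubx genes therefore sat next to Pol II peaks of their neighbours in every library while having none of their own. When the 6 lists were merged, the stretch without any peak that held Ubx and abd-A was 282.0 kb long and ranked 19 of 6522 such stretches in the genome, with 4 longer ones on 3R. The stretch that held Scr and Antp was 274.0 kb long and ranked 20, with 5 longer ones on 3R. The median stretch was 6413.0 bp, and 257 stretches exceeded 100 kb. Both stretches above were thus among the long ones without being the longest. The remaining stretches with Hox TSSs were shorter than 100 kb. They held the pb TSS (67.2 kb, rank 443), lab (64.1 kb, rank 471) and the unoccupied Abd-B TSSs (47.7 kb, rank 712).

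The 8 genes have 19 annotated TSSs, of which 2 were occupied in any library. In the Antennapedia complex, lab has 2 TSSs, pb 1, Dfd 1, Scr 2 and Antp 3. Antp is the longest of the 8 genes (102976 bp) and its 3 TSSs were each 67656 bp or more from any peak in every library. In the bithorax complex, Ubx has 1 TSS, abd-A 3 and Abd-B 6. At Ubx the nearest peak was 81996 to 82142 bp from the TSS, and at abd-A 104024 bp or more from each of the 3. At Scr the nearest peak was 56011 bp or more from both TSSs, so the lack of a peak at these genes did not turn on the width of the TSS window.

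The occupied Abd-B TSS (3R, 16934242, minus strand) is the one nearest the 3′ end of the gene. Its 2 annotated transcripts (Abd-B-RB and Abd-B-RH) encode the long protein of 493 residues, known as the m form, which acts in the more anterior part of the Abd-B domain. The 4 TSSs farthest upstream (16960281, 16963641, 16968574 and 16972236) encode a protein of 270 residues, known as the r form, which lacks the N-terminal part and acts in the most posterior segments. The remaining TSS (16944273), with 4 annotated transcripts encoding 270 to 323 residues, lies between them. None of these 5 TSSs had a peak in any library, and the nearest peak to 16944273 was 9929 to 37827 bp away. Dfd has 1 TSS (3R, 6791836, plus strand), 1 transcript and a protein of 586 residues.

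Sequence around both occupied TSSs is shown because these are the places in the complexes where Pol II was called in more than 1 library, with 3 unoccupied Hox TSSs for comparison. Each runs 5′ to 3′ along the gene's strand from 70 bases upstream to 30 bases of the transcribed side, with the TSS at position 71, as read from the RefSeq Release 6 genome. Capitals mark matches, on either strand, to GAGAG (the core bound by GAGA factor, a trithorax group protein), TATAAA (the TATA box), TCAGT (the core of the Initiator) and GGACG (the core of the downstream promoter element).
Dfd TSS 6791836 (occupied, chr3R:6791766-6791865, plus strand): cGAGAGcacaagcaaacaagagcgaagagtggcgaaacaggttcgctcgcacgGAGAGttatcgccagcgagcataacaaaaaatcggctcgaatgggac
Abd-B TSS 16934242 (occupied, chr3R:16934213-16934312, minus strand): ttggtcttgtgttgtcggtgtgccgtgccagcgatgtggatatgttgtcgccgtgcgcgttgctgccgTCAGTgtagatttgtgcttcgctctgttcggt
Abd-B TSS 16944273 (unoccupied, chr3R:16944244-16944343, minus strand): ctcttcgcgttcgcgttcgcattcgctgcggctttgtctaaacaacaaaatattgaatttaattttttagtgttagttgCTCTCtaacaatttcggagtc
Antp TSS 6932840 (unoccupied, chr3R:6932811-6932910, minus strand): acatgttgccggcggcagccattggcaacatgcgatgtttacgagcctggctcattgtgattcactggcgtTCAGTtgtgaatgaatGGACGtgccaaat
Ubx TSS 16734426 (unoccupied, chr3R:16734397-16734496, minus strand): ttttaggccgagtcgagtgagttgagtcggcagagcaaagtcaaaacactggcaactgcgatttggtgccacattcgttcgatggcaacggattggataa

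Within the 100 bases printed, the 2 occupied TSSs had no motif in common. Counting the TSS as position 1 with no position 0, the TCAGT at Abd-B began at −2, so that its A was the annotated start of the transcripts, and no GAGAG lay in those bases. At Dfd 2 GAGAG matches lay upstream, beginning at −69 and −17, and no TCAGT lay in the 100 bases. The unoccupied Antp TSS also had a TCAGT, beginning at 2, and a GGACG beginning at 18. In wider windows from 250 bases before to 50 after the TSS, with overlapping matches counted, GAGAG was found at 16 of the 19 Hox TSSs (84.2%), against 33.1% of the 19630 TSS positions of all protein-coding genes. Dfd had 6 matches, the most of the 19, followed by 5 each at 1 lab, 1 Scr and 1 abd-A TSS, none of which was occupied. In these windows, on either strand and at any position, Dfd and the occupied Abd-B TSS had matches to 3 motifs in common. GAGAG matched 6 times at Dfd and 1 time at Abd-B, TCAGT 1 time at each and GGACG 2 times at each. Neither had a TATA box match, and no GGACG lay in the 100 bases printed for either. Over the 19 TSSs, TATAAA was found at 3 (15.8%, against 42.2%), TCAGT anywhere in the window at 11 (57.9%, against 52.1%) and GGACG at 6 (31.6%, against 17.4%). TCAGT on the gene's strand within 7 bp of the TSS was found at 2 (10.5%, against 9.92%), the Antp and Abd-B TSSs shown. These matches describe the letters in the windows and are not binding sites, and windows of neighbouring TSSs of abd-A overlap slightly.

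At the Dfd TSS the 3 peaks overlapped each other but differed in width. In mock replicate 1 the peak (3R, 6791728 to 6791894) was 167 bp wide, with a fold enrichment over input of 3.53 and a −log10 q of 5.06. In mock replicate 2 (6791748 to 6791924) it was 177 bp wide, with a fold enrichment of 3.51 and a −log10 q of 3.68. In siAGO2 replicate 2 (6791755 to 6792494) it was 740 bp wide, with a fold enrichment of 3.74 and a −log10 q of 3.29. The mock peaks straddled the TSS and covered 59 and 89 bp of the gene, all of it 5′ UTR, whereas the siAGO2 peak ran from −81 to 658 bp relative to the TSS and covered 489 bp of 5′ UTR and 170 bp of coding sequence. The 3 peaks shared 140 bp around the TSS. The mock widths were small for their lists, with 2.85% and 4.34% of peaks as narrow or narrower, while 70.9% of peaks in siAGO2 replicate 2 were as narrow as or narrower than 740 bp. The wide Dfd peak was seen in 1 library, and siAGO2 replicate 1 had no Dfd peak to set beside it.

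At the Abd-B TSS the 5 peaks were alike in position and width. The peak in mock replicate 1 (3R, 16934073 to 16934336) was 264 bp wide, with a fold enrichment of 3.0 and a −log10 q of 6.13, and that in mock replicate 2 (16934135 to 16934344) was 210 bp wide, with a fold enrichment of 3.69 and a −log10 q of 8.16. In siAGO2 replicate 2 (16934077 to 16934334) the peak was 258 bp wide, with a fold enrichment of 4.7 and a −log10 q of 5.06. In dsLaminB replicate 1 (16934118 to 16934313) it was 196 bp wide, with a fold enrichment of 3.13 and a −log10 q of 2.14, and in dsLaminB replicate 2 (16934120 to 16934301) 182 bp wide, with a fold enrichment of 3.74 and a −log10 q of 5.98. All 5 shared 167 bp (16934135 to 16934301) and together spanned 272 bp, reaching from −102 bp to 169 bp relative to the TSS at most, within the 5′ UTR of the m transcripts and the intron of the longer ones. The dsLaminB peaks (196 and 182 bp in replicates 1 and 2) were narrower than both mock peaks (264 and 210 bp). The median peak of the dsLaminB libraries was also narrower (300 and 351 bp, against 540 and 481 bp in mock). No Abd-B peak reached farther into the gene than this.

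**Figure D2:**
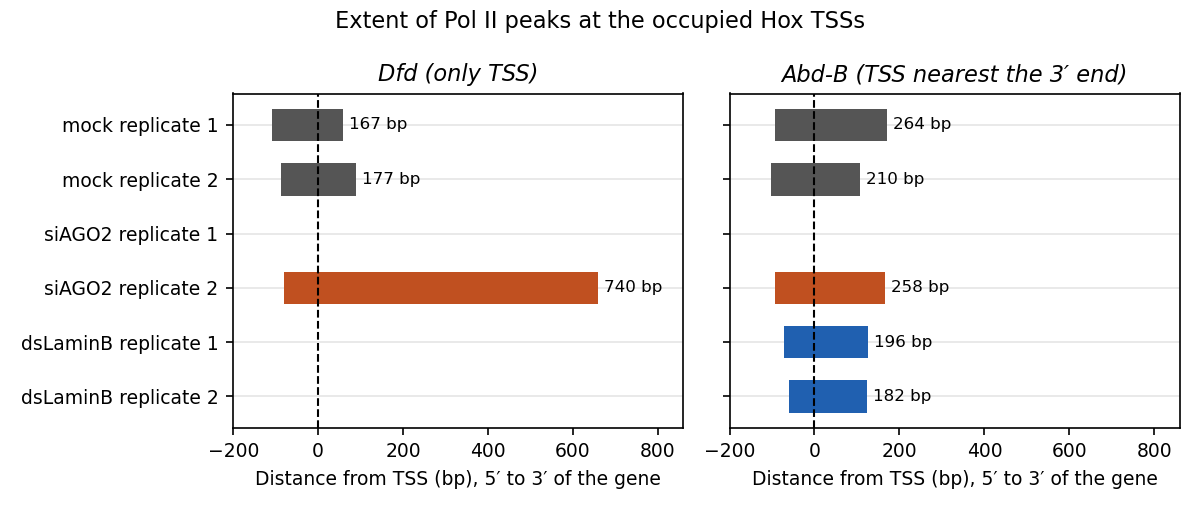
Extent of each Pol II peak at the occupied TSS of Dfd (left) and Abd-B (right); the x axis gives the distance from the TSS in bp along the gene's strand, each bar is the peak of 1 library with its width beside it, and the dashed line is the TSS. The Abd-B bars run from 182 to 264 bp and the mock Dfd bars are 167 and 177 bp, while the Dfd bar of siAGO2 replicate 2 is 740 bp and extends into the gene.

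The plot of peak extents sets these widths side by side. The pb peak in dsLaminB replicate 1 (3R, 6724214 to 6724573) does not appear in it because it lay 17490 bp from the only pb TSS, wholly within an intron. It was 360 bp wide, with a fold enrichment of 3.23 and a −log10 q of 1.63. In the other 5 libraries no peak lay on pb, and the median distance from the gene to the nearest peak over the 6 libraries was 47685.0 bp.

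The Hox peaks stood low in their lists when peaks were ranked by −log10 q. Dfd ranked 4935 of 5965 in mock replicate 1, 4845 of 5601 in mock replicate 2 and 4448 of 5381 in siAGO2 replicate 2. These ranks were 82.7%, 86.5% and 82.7% of the way down the lists. Abd-B ranked 4676 of 5965 and 3639 of 5601 in mock, 3725 of 5381 in siAGO2 replicate 2, and 2299 of 2531 and 2506 of 4124 in dsLaminB. Its positions, from 60.8% to 90.8% of the way down, were above those of Dfd in each of the 3 libraries that held both. The pb peak ranked 2421 of 2531, or 95.7% of the way down. Every Hox peak lay in the weaker part of its list, below the median −log10 q.

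**Figure D3:**
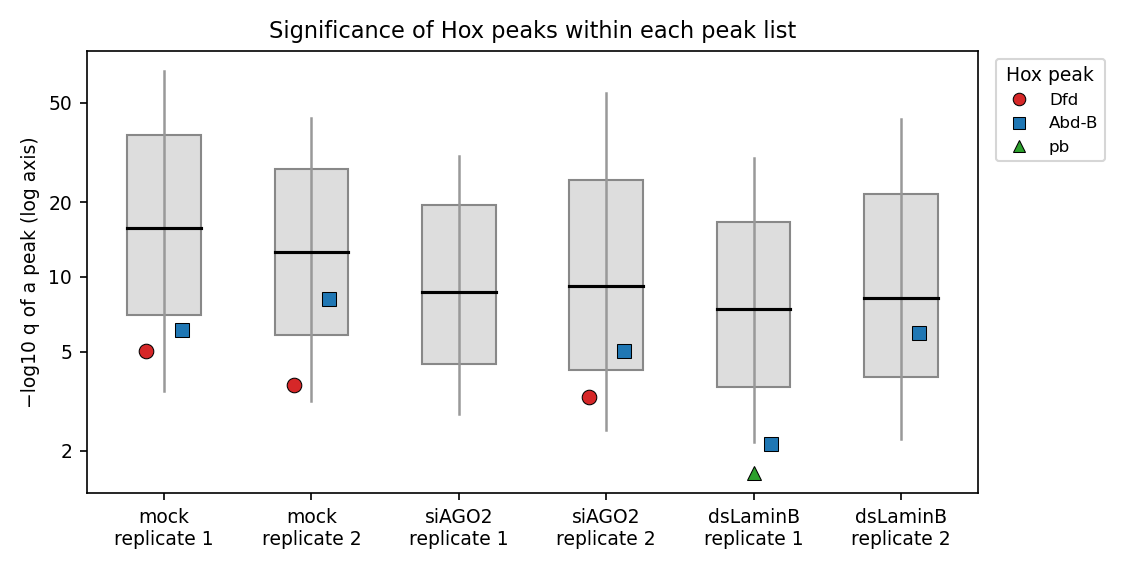
The −log10 q (log axis) of the Hox peaks (circles Dfd, squares Abd-B, triangle pb) in each library; grey boxes give the middle 50% of all peaks in that list with the median as a black line, and grey lines run from the 10th to the 90th percentile. The 9 symbols all lie below the median line of their library, and siAGO2 replicate 1 has none.

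The plot of −log10 q also shows that the Abd-B peak kept a place in lists of very different length. To compare libraries over the same sites, peaks were ranked among the 2333 sites with a peak in all 5 libraries that held the Abd-B peak, a step chosen after the values were seen. Among these, Abd-B ranked 2329 and 2293 in mock, 2307 in siAGO2 replicate 2, and 2189 and 2068 in dsLaminB. Its position was 99.8% and 98.3% of the way down in mock, 98.9% in siAGO2 replicate 2, and 93.8% and 88.6% in dsLaminB, so it was among the weakest of these sites throughout. From so near the bottom a position had little room to fall. The −log10 q at Abd-B was 6.13 and 8.16 in mock and 2.14 and 5.98 in dsLaminB. The list medians were 15.7 and 12.6 in mock and 7.43 and 8.22 in dsLaminB. The fold enrichment at Abd-B was 3.0 and 3.69 in mock and 3.13 and 3.74 in dsLaminB. Whether the position differed between the groups was not tested. Among the 4890 sites common to the 3 libraries with a Dfd peak, Dfd was 94.7% and 93.6% of the way down in mock and 88.5% in siAGO2 replicate 2.

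Whether a peak as weak as those of Hox genes would be found again in another library was read from the 500 peaks nearest to each in rank, also chosen after the values were seen. Of the 500 peaks ranked nearest to Dfd in mock replicate 1, 77.6% overlapped a peak of mock replicate 2, 56.0% one of siAGO2 replicate 2 and 13.8% one of siAGO2 replicate 1. For dsLaminB the shares were 1.0% in replicate 1 and 12.2% in replicate 2. The libraries that lacked the Dfd peak were therefore those in which most peaks of its rank were lacking as well. Of the 500 ranked nearest to Abd-B in mock replicate 1, 86.8% overlapped a peak of mock replicate 2, 71.0% one of siAGO2 replicate 2 and 22.8% one of siAGO2 replicate 1. The shares in dsLaminB were 1.8% in replicate 1 and 20.0% in replicate 2, so the Abd-B peak was called in both dsLaminB libraries while few peaks ranked like it in mock replicate 1 were. Ranked in mock replicate 2, where Abd-B stood higher, 8.6% and 57.0% of its 500 neighbours had a peak in the dsLaminB libraries and 64.0% in siAGO2 replicate 1.

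This pattern of libraries was rare for Abd-B and common for Dfd. Of the 7099 protein-coding genes with a TSS peak in at least 1 library, 912 (12.8%) had the Dfd pattern of both mock libraries and siAGO2 replicate 2 alone. Only 23 (0.324%) had the Abd-B pattern of every library but siAGO2 replicate 1. Among the other homeobox genes, eve, Lim1, nub, gsb-n and Dr shared the Dfd pattern, as did tey, whose place among homeobox genes is uncertain. The mean rank of tey (82.0% of the way down) was within 5 percentage points of that of Dfd (84.0%). Without tey, no homeobox gene of this pattern had a mean rank that close to Dfd. The homeobox gene with the Abd-B pattern was pros, a neural fate regulator, whose mean rank of 46.8% was well above that of Abd-B (72.8%).

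For the comparison of treatments, a gene was called lost when both libraries of the reference group and neither of the other had a body peak, and gained in the opposite case. Dfd was lost in dsLaminB against mock, 1 of the 8 Hox genes, where 11.5% of all 18277 genes were lost. Only a gene with a peak in both mock libraries can be lost, and of the 6743 such genes 2094 (31.1%) were lost in dsLaminB. Of these, 505 had their best peak in the weakest 20% of both mock lists, as Dfd did. Among those 505, 473 (93.7%) were lost. The 20% cut was not part of the planned comparisons. The Dfd call ended at a −log10 q of at least 5, where 12.8% of all genes were lost, and with lists of equal length, where 1.67% were. No Hox gene was gained in dsLaminB, where 0.0328% of all genes were, but with lists of equal length Abd-B was (0.449% of all genes). Against mock, no Hox gene was lost in siAGO2 (2.76% of all genes) or gained (0.0219%). Between siAGO2 and dsLaminB, 0 Hox genes differed by this rule, where 3.06% of genes had a peak in both siAGO2 libraries alone and 0.0492% in both dsLaminB libraries alone. With siAGO2 replicate 2 left out, Dfd and Abd-B both met the rule for loss in siAGO2, as did 10.1% of all genes. With dsLaminB replicate 2 left out, pb met the rule for gain in dsLaminB, as did 0.202% of all genes.

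In counts per library, Hox genes with a TSS peak averaged 2 in mock (SD 0, n = 2), 1 in siAGO2 (SD 1.41, n = 2) and 1 in dsLaminB (SD 0, n = 2). The difference was −1.0 for siAGO2 against mock (exact two-sided permutation test, p = 1.0) and −1.0 for dsLaminB against mock (exact two-sided permutation test, p = 0.333, the smallest that 2 against 2 libraries allow). The means of siAGO2 and dsLaminB were equal (difference 0, exact permutation p = 1.0), although the siAGO2 libraries stood at 0 and 2. Hox genes with a body peak numbered 2 in each mock library, 0 and 2 in siAGO2, and 2 and 1 in dsLaminB, and the differences of −1.0 for siAGO2 and −0.5 for dsLaminB against mock were no larger than the pooled SDs of 1.0 and 0.5. Each of these genes carried 1 peak, so the counts of peaks were the same. Bases of Hox genes under peaks were 323 and 299 in the mock libraries, 0 and 917 in those of siAGO2, and 556 and 182 in those of dsLaminB, and the groups overlapped. Of the 12 tests of counts and bases, each had an adjusted p of 1 (exact permutation, Benjamini-Hochberg), and none could have passed a threshold of 0.05 with 2 libraries a group. When the lists were cut to equal length by keeping the 2531 strongest peaks of each, the difference of dsLaminB from mock turned direction, since no mock or siAGO2 library then held a Hox TSS peak and both dsLaminB libraries held that of Abd-B, ranked 2299 and 2506.

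Against the rest of the genome, Hox genes carried few TSS peaks for their length. 2 of the 8 (25.0%) had a TSS peak in at least 1 library, against 50.8% of all protein-coding genes, and 0 had one in all 6, against 19.7%. Long genes more often had one. Of the 1788 protein-coding genes within the length range of the 8 (10593 to 102976 bp), 64.0% had a TSS peak in at least 1 library and 43.1% in all 6, with a median of 5.0 libraries a gene, against a median of 0 for the Hox genes. Genes with at least 2 TSSs, as 5 of the 8 Hox genes have, had a peak in 69.5% of cases. With 8 genes in 2 clusters, which are not independent of each other, these shares are a description and were not tested.

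**Figure D4:**
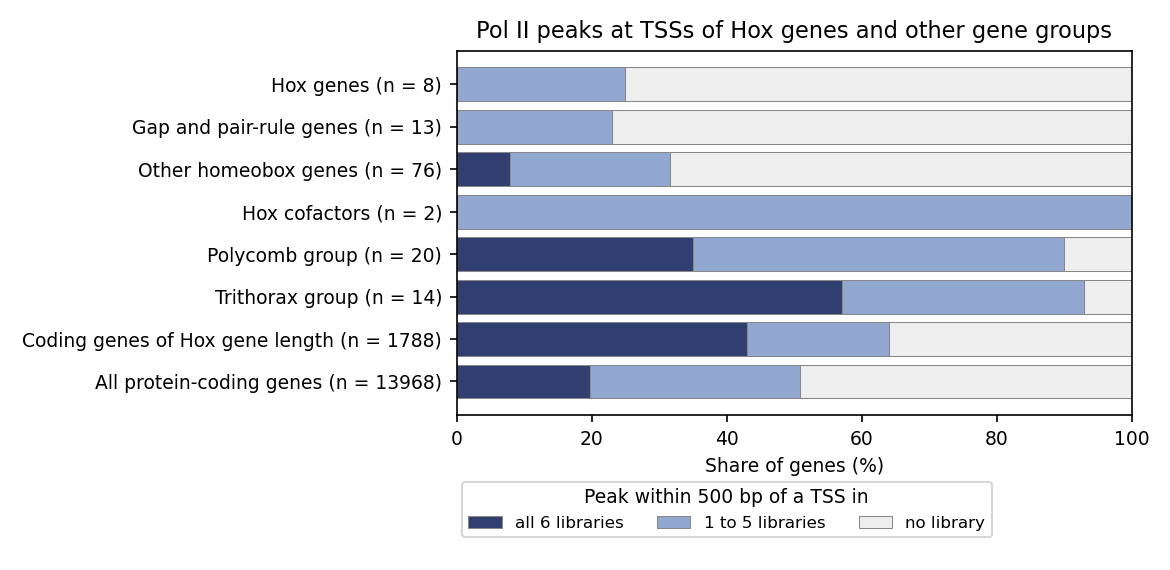
Share of genes (x axis, %) with a TSS peak in all 6 libraries (dark), in 1 to 5 libraries (light) or in none (grey), for the 8 Hox genes, 5 lists of related genes, coding genes of the Hox genes' length range and all protein-coding genes. Hox genes (25.0% with a peak) and gap and pair-rule genes (23.1%) are at the low end, and Polycomb (90.0%) and trithorax (92.9%) group genes at the high end. Some genes are in more than 1 list.

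The plot of gene groups sets Hox genes beside genes of the same pathway. Gap and pair-rule genes are the segmentation genes that set the first Hox domains in the embryo. Of these, 3 of 13 (23.1%) had a TSS peak in any library (Kr and odd in 5 libraries, eve in 3) and 0 in all 6. This share was near that of the Hox genes (25.0%), but the segmentation genes are shorter (median 2533.0 bp, against 30563.0 bp). The part of gene length in this likeness was not tested. Of 76 other homeobox genes, 24 (31.6%) had a peak in any library, or 23 of 75 without tey, whose place among homeobox genes is uncertain, and 6 had one in all 6 libraries, among them ct, zfh1, zfh2 and mirr. The peaks of ct and zfh1 stood near the top of the lists (mean position 3.52% and 4.54% of the way down), so low rank was not shared by all homeobox genes in these cells. Of the cofactors that bind DNA with Hox proteins, exd had a TSS peak in 5 libraries (all but dsLaminB replicate 1) and hth in 1 (mock replicate 1). These lists overlap, since the other homeobox genes include eve and ftz as well as exd and hth.

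The genes that encode the regulators of the complexes were widely occupied. Over all protein-coding genes, 50.8% had a TSS peak in at least 1 library and 19.7% in all 6. Of 20 Polycomb group genes, 18 (90.0%) had a TSS peak in at least 1 library and 7 in all 6, among them Psc and Su(z)2, which encode related subunits of Polycomb repressive complexes and stood 3.35% and 4.93% of the way down the lists, Caf1-55 (35.1%) and Sfmbt (48.6%). The 2 without a peak were pho, which encodes a DNA-binding recruiter of Polycomb proteins, and sxc, which encodes the O-GlcNAc transferase. Of 14 trithorax group genes, 13 (92.9%) had a peak in at least 1 library and 8 in all 6, among them mor (16.6% of the way down) and brm (60.5%), which encode subunits of the Brahma remodelling complex, Trl (25.0%), which encodes GAGA factor, and ash1 (61.8%), which encodes a histone methyltransferase, while Utx had none. Polycomb group genes with a TSS peak numbered 18 in each mock library, 14 and 18 in siAGO2, and 7 and 10 in dsLaminB. Trithorax group genes with one numbered 13 in each mock library, 11 and 13 in the siAGO2 libraries, and 8 and 11 in those of dsLaminB. The part of list length in these counts and shares was not tested. These lists were chosen with earlier results of these data known and were described by their counts alone.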

How the data were processed

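The authors trimmed ChIP-seq reads with cutadapt, aligned them to dm6 with Bowtie2, removed multimapping and duplicate reads with samtools and Picard, and called broad peaks with MACS2 2.1.1.20160309, separately for each replicate against its input. The deposited lists give a score (not used further), the fold enrichment over input, and the −log10 p-value and −log10 q-value of each peak. The 6 inputs entered only through the authors' peak calls. Reads per library were not given in the lists, so no counting interval applies. Peaks were set against Ensembl release 115 (BDGP6.54, transposable elements left out) with Python 3.11.15 and numpy 2.4.6. Coordinates are 1-based. Peaks were ranked by −log10 q, then −log10 p. Exact two-sided permutation tests compared counts between groups, with Benjamini-Hochberg adjustment over 12 tests. Alternatives were a −log10 q of at least 5, lists of equal length, TSS windows of 0 and 1500 bp, joining peaks within 1000 bp, leaving out peaks near other genes' TSSs, each replicate left out, and a replicate block. The 8 Hox genes, other homeobox genes, cofactors, gap and pair-rule, Polycomb and trithorax group lists and cell type markers were chosen with earlier results of these data known. From each list, the 2 members with the lowest and the 2 with the highest mean rank among those with a TSS peak in all 6 libraries were named; members named beside a small count were chosen after their values were seen. Symbols not matched (calypso, h and nos) were left out. The TSS peak calls were tested on planted peaks and the permutation test on a made-up example. The other calculations were not tested this way.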

Additional observations from a re-analysis of the deposited data

How the results depend on the processing

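The count of Hox genes with a TSS peak, and the number of libraries with a TSS peak at each Hox gene, kept their values with TSS windows of 0 and 1500 bp, with peaks within 1000 bp joined, and without peaks near other genes' TSSs. With lists of equal length (2531 peaks each) the difference in Hox genes with a TSS peak became 0 for siAGO2 against mock, 1.0 for dsLaminB against mock and −1.0 for siAGO2 against dsLaminB, and the differences in body peaks, by genes and by peaks, became 0, 1.5 and −1.5. At a −log10 q of at least 5, body peaks differed by −1.0 for dsLaminB against mock and 0 for siAGO2 against dsLaminB. Bases under peaks differed by −138.0 and −176.0 for siAGO2 and dsLaminB against mock at a −log10 q of at least 5, and by 0 (siAGO2 against mock) and −369.0 (siAGO2 against dsLaminB) with equal lists. Dfd had a TSS peak in 1 library at the stricter threshold and in 0 with equal lists, in place of 3, and Abd-B in 4 and 2, in place of 5.

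With 1 library left out at a time, the TSS count differed by −2.0 to 0 (siAGO2 against mock), −1.0 to −1.0 (dsLaminB against mock) and −1.0 to 1.0 (siAGO2 against dsLaminB), body genes and peaks by −2.0 to 0, −1.0 to 0 and −1.5 to 0.5, and bases by −311.0 to 606.0, −129.0 to 245.0 and −369.0 to 548.0. Bases turned direction without siAGO2 replicate 2 (−311.0 against mock, −369.0 against dsLaminB), without dsLaminB replicate 1 (−129.0) and without dsLaminB replicate 2 (−97.5), and body counts for siAGO2 against dsLaminB without siAGO2 replicate 1 (0.5). A group left with 1 library gives a value with no test.

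Over all genes, 909 were lost and 1 gained in siAGO2 at the stricter threshold, in place of 505 and 4, and 142 and 71 with equal lists. In dsLaminB 2 were gained at the stricter threshold, in place of 6, and 305 were lost and 82 gained with equal lists, in place of 2094 and 6. Leaving out 1 library gave 577 to 1846 lost and 4 to 101 gained in siAGO2, and 2145 to 3941 lost and 6 to 63 gained in dsLaminB. The cause of these shifts was not tested.

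Same-numbered libraries did not deviate together in their TSS calls (correlations of −0.0268, 0.0332 and 0.0565). With 2 libraries a group, this cannot exclude that same-numbered libraries shared a culture or batch. A replicate block left each Hox difference at its value (−1.0 for the TSS count of dsLaminB against mock, exact sign-flip p = 0.5, the smallest 2 pairs allow). Sequencing depth is unknown, so a Hox TSS without a peak is one at which none was called, not one shown to lack Pol II.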
